A study of Mus musculus with 24 samples.

Results

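Hippocampal RNA was compared across all expressed genes between unstressed mice labelled knockout for the type 1 interleukin-1 receptor (IL-1R1) and unstressed wild-type mice. The comparison takes in 13 of the 24 libraries of a study that crossed this knockout with social defeat. They are 6 IL-1R1 knockout control libraries (KO controls 1 to 6) and 7 WT control libraries (WT controls 1 to 7), and they were picked by their titles alone. All are on the C57BL/6 background, and none was stressed. The other 11 libraries, 5 of stressed knockout mice (KO stress) and 6 of stressed wild-type mice (WT stress), are used only for values set beside those of the controls. The study's title calls the knockout neuronal, but no label names the Cre line or promoter, the exons removed, or the sex and age of the mice. Nor do the labels say that each library came from its own mouse, so every p-value speaks only of sample-to-sample spread, part of which may be technical.

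The type 1 receptor is the receptor through which interleukin-1 alpha and interleukin-1 beta act. Once a ligand is bound it recruits the accessory protein encoded by Il1rap, and the pair signals through MyD88 and IRAK kinases to NF-kB. Il1rn encodes a secreted antagonist and Il1r2 a decoy receptor. In the brain the receptor is abundant on endothelial cells and is also found on neurons, among them those of the hippocampus, where interleukin-1 affects synaptic plasticity and responses to stress.

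The library numbers fall into 2 classes that stand apart in the counts. Class 1 holds KO controls 1 to 4 and WT controls 1 to 3, and class 2 holds KO controls 5 and 6 and WT controls 4 to 7. The ribosomal precursor Rn45s took 4471 to 8373 CPM (counts scaled to the total of the library) in class 2 and 24238 to 50453 CPM in class 1, and the labels do not name what separates them. Class is therefore a term of the fit, and values within each class are given beside some of the results. KO controls hold 4 class 1 and 2 class 2 libraries and WT controls 3 and 4, so pooled ranges, means and medians also reflect class. The fitted log2 fold changes allow for it. The classes were first noticed in these counts, so p-values between them, given below, describe the split and do not test it. Total counts were 25711872 to 30002237 in KO controls and 27533414 to 34741660 in WT controls, so that 3 reads correspond to 0.0864 to 0.117 CPM. Transcripts of neighbouring brain regions also differ between libraries, above all hypothalamic neuropeptides in KO controls 2, 3 and 4 and dopamine neuron genes in WT controls 1, 2 and 3. The markers of the hippocampus itself were present throughout. All 20 pyramidal cell markers of fields CA1 and CA3 were detected, with a summed level of 1661 to 2930 CPM in KO controls and 1948 to 3264 CPM in WT controls.

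Il1r1, the targeted gene, had similar counts in both genotypes. The gene (ENSMUSG00000026072.12) occupies bases 40225080 to 40317257 of mm10 chromosome 1, plus strand. KO controls 1 to 6 had 5.46, 4.17, 3.05, 3.31, 2.58 and 2.10 CPM, and WT controls 1 to 7 had 5.64, 3.26, 2.98, 2.26, 4.57, 2.71 and 1.99 CPM. The KO values lie wholly inside the WT range. The means were 3.44 ± 1.21 CPM in KO controls (SD, n = 6) and 3.35 ± 1.31 CPM in WT controls (SD, n = 7), and the log2 fold change with class as a term was −0.12 ± 0.23 (SE; 95% interval −0.53 to 0.41 from limma voom). An exact two-sided permutation test of mean log2(CPM + 0.5) over 1716 assignments of the libraries gave a difference of 0.049 and p = 0.844. Over the 525 assignments within the classes, the exact test gave a difference of −0.073 and p = 0.741. The sign of the difference turns with the class term, and within class 1 and class 2 the log2 fold changes were 0.02 and −0.30. Whole tissue holds receptor transcripts of cells that a neuronal deletion spares, and the labels do not say whether the deletion removes counted exons, so these counts do not check the genotype labels. In whole tissue, fewer cells of a type and less RNA per cell cannot be told apart.

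The partners and ligands of the receptor were likewise counted at similar levels. Il1rap, the accessory protein gene, had 18.4 to 24.2 CPM in KO controls (median 21.6) and 18.03 to 27.1 CPM in WT controls (median 23.1), with a log2 fold change of −0.07 ± 0.10. Il1a stood near the limit of counting, at 0.210 to 0.702 CPM in KO controls and 0.136 to 0.702 CPM in WT controls (log2 fold change 0.04 ± 0.43). Il1b, which encodes the ligand the study's title names, was too low to be tested, with 30 reads in all over the KO controls and 38 over the WT controls. The antagonist gene Il1rn had 2 reads in KO controls and 0 in WT controls. The decoy receptor gene Il1r2 had 43 reads in KO controls and 60 in WT controls and was also not tested. Sigirr, a receptor of the same family that dampens interleukin-1 signalling, had the smallest p of the family. It had 1.82 to 3.55 CPM in KO controls (median 2.83) and 1.66 to 2.43 CPM in WT controls (median 2.21), ranges that overlap, with a log2 fold change of 0.39 ± 0.19 (adjusted p = 0.999 in edgeR).

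**Figure D1:**
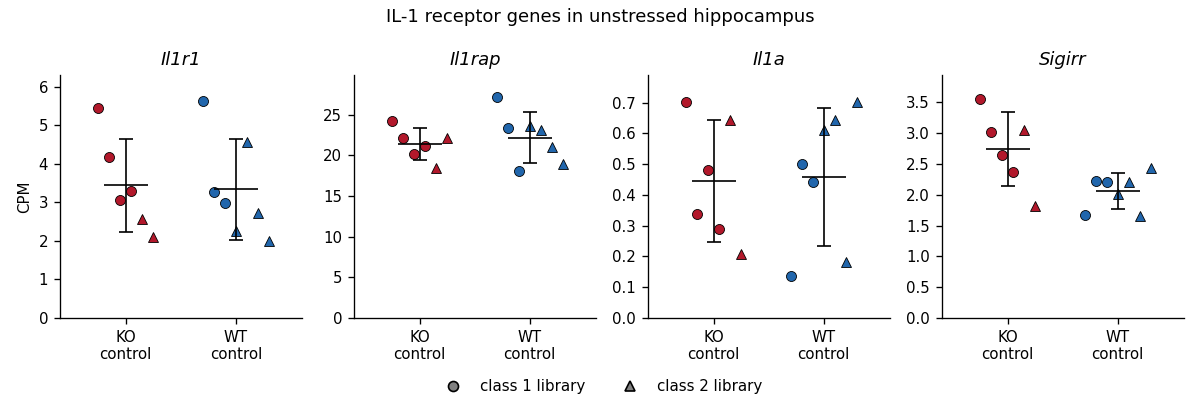
Levels of Il1r1, Il1rap, Il1a and Sigirr in CPM (vertical axes, from 0) in the 6 KO control and 7 WT control libraries. Each point is 1 library, circles class 1 and triangles class 2, with the mean and SD as bars. The KO points lie within or across the WT points in all 4 panels, and Il1r1 is at 2.10 to 5.46 CPM in KO controls and 1.99 to 5.64 CPM in WT controls.

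Genes that surround Il1r1 on chromosome 1 were examined because a targeted locus can carry flanking sequence of another strain. Of 60 other tested genes with a midpoint within 5 Mb of that of Il1r1, 25 had a log2 fold change above 0 and 35 below 0 (50.8% and 49.2% of all genes tested), with a median of −0.013. An unadjusted p under 0.05 was found for 2, beside 3.98% of all genes, and both encode sodium-proton exchangers next to the receptor cluster. In a narrower list of neighbours that includes Il1r1, 23 genes were tested, and 7 lay above and 16 below 0 (median −0.04). The ones with such a p were the same 2, both below 0, beside 1.99% of all genes. This list draws on the same window, so it is not a second observation. Slc9a4 (chromosome 1, 40580081 to 40630725, plus strand) had 1.46 to 6.39 CPM in KO controls (median 2.88) and 3.02 to 10.4 CPM in WT controls (median 6.69), with a log2 fold change of −0.64 ± 0.19. Slc9a2 (40680574 to 40769273, plus strand) had 4.14 to 19.1 CPM in KO controls (median 7.33) and 7.69 to 23.1 CPM in WT controls (median 14.7), with a log2 fold change of −0.52 ± 0.19. Slc9a4 and Slc9a2 were also higher in class 2 than in class 1, by log2 fold changes of 1.32 and 1.20 (adjusted p = 0.000122 and 0.000294 in edgeR). The KO minus WT values above come from the fit with class as a term. Within class 1 and class 2 they were −0.71 and −0.55 for Slc9a4 and −0.80 and −0.18 for Slc9a2. Neither passed, since the adjusted p of every gene was at least 0.999. Of 13 tested genes known to vary between mouse strains, 1 had an unadjusted p under 0.05, beside 3.98% of all genes. It was Wdfy1, an endosomal protein gene, at 10.4 to 16.7 CPM in KO controls and 11.3 to 17.3 CPM in WT controls (log2 fold change −0.23 ± 0.10).

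Over the whole transcriptome, no gene passed the test between KO and WT controls. Of 15655 genes tested with the quasi-likelihood test of edgeR, 0 (0%) passed an adjusted p of 0.05. At an unadjusted p under 0.05 there were 623 genes (3.98%), 311 higher and 312 lower in KO controls (1.99% each). DESeq2 called 2 genes (0.0128%), Oxt (adjusted p = 0.00770) and the pseudogene Rps15a-ps6 (adjusted p = 0.0283), both described later with the libraries that carry them, and limma voom called 0, with 619 genes at an unadjusted p under 0.05. Log2 fold changes lay above 0 for 50.8% and below 0 for 49.2% of genes, their median was 0.0017, the median of its size was 0.07 and 95% of genes lay within 0.41. A log2 fold change of more than 1 in size was fitted for 85 genes, 54 higher and 31 lower in KO controls. Leaving out 1 library at a time gave 0 genes in 12 of 13 fits and 1 gene, Pmch, without KO control 1 (log2 fold change 5.17, adjusted p = 0.00415 in edgeR). The 6 KO libraries lay wholly above or below the 7 WT libraries for 8 genes (0.0511%). Class 2 against class 1 in the same fit called 3819 genes (24.4%), 1791 higher and 2028 lower in class 2. The median size of its log2 fold changes was 0.17. Since the classes were first noticed in these counts, that number of calls partly follows from the choice and is given as a scale only.

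A p that misses the threshold does not show that the genotypes are alike, so the intervals of the differences were counted as well. The 95% interval of limma voom lay within 1.5-fold in either direction for 12266 genes (78.4%). Among the 10064 genes with a mean of at least 10 CPM this held for 9807 (97.4%), and among the 1423 genes under 1 CPM for 9 (0.632%). Within a 25% rise or the matching fall lay 55.3% of all genes, and within 2-fold 91.5%. Low transcripts had the widest intervals, the cytokine ligands among them, and that of Il1a ran from −0.88 to 1.03 on the log2 scale.

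**Figure D2:**
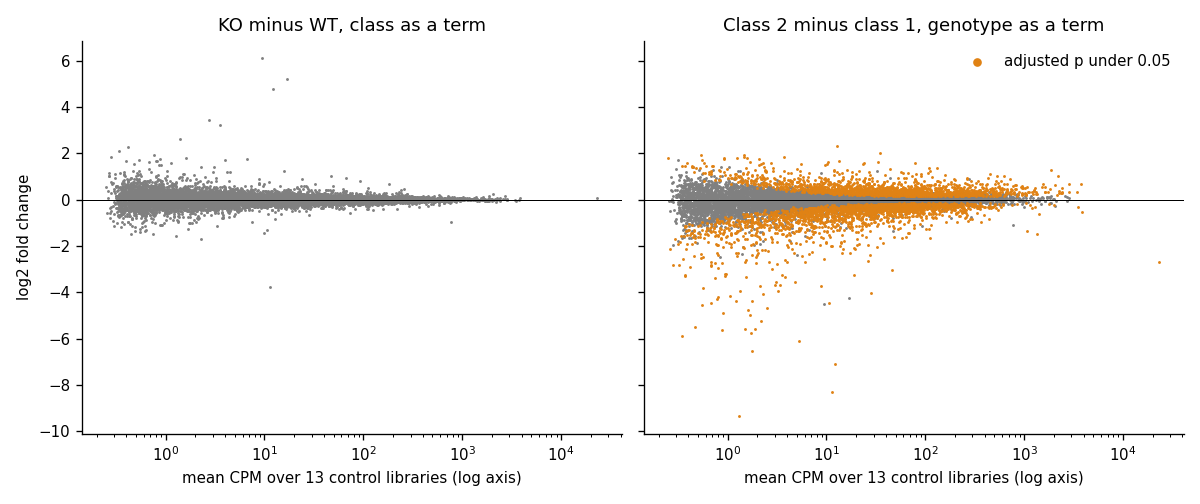
Log2 fold change (vertical axis) against mean CPM over the 13 control libraries (horizontal log axis) for 15655 genes, with KO minus WT at left and class 2 minus class 1 at right, both from 1 edgeR fit. Orange points passed an adjusted p of 0.05. There are 0 of them at left and 3819 at right, where the classes were first noticed in these counts.

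The 20 genes with the smallest p, described here as values only, hold 13 that were higher and 7 that were lower in KO controls, with edgeR p of 0.000263 to 0.00217 and an adjusted p of 0.999 for each. In the stressed libraries 0 of the 20 had an unadjusted p under 0.05, and 13 had the same sign. The first of them, Slc6a3, encodes the dopamine transporter of midbrain neurons. KO controls 1 to 6 had 3.39, 0.679, 0.411, 7.27, 0.203 and 0 CPM, and WT controls 1 to 7 had 49.8, 31.3, 53.4, 0.0718, 0.143, 0.0603 and 0.0585 CPM. WT controls 1 to 3 stand apart from the other 10 controls, and the log2 fold change was −3.79 ± 0.72. Among the stressed libraries the high level occurred in both genotypes, at 29.4, 54.2 and 57.3 CPM in KO stress 2, 3 and 5 and 39.4 and 45.5 CPM in WT stress 1 and 5, with at most 6.72 CPM in the other 6. Chrna6, a nicotinic receptor subunit gene of dopamine neurons, had the same pattern among controls, with at most 2.03 CPM in any KO control, against 6.19 to 8.80 CPM in WT controls 1 to 3 and at most 0.422 CPM in the other WT controls (log2 fold change −1.71 ± 0.45).

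The second gene, Rps15a-ps6, is an unspliced copy of the ribosomal protein gene Rps15a. It occupies bases 6172644 to 6173036 of mm10 chromosome 11, minus strand, within the gene Nudcd3. Its 393 bases align to the coding sequence of Rps15a with 0 gaps and 98.7% identity, and 5 bases differ: C7T, C117T, T150C, A164G and T301C, with the base of Rps15a first and positions counted from the start codon of Rps15a. The first 180 bases of both, from the mm10 genome and GENCODE transcripts, are shown because a read that falls between the differing bases cannot be told apart between the copies. Capitals mark the 4 positions that differ in this stretch.
Rps15a-ps6: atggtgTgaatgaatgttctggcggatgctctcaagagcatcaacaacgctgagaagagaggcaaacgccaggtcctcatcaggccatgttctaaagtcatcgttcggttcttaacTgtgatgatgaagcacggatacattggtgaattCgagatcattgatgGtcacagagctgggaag
Rps15a: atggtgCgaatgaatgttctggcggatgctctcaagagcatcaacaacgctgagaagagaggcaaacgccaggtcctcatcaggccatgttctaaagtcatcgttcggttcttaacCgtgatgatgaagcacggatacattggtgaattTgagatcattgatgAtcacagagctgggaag
KO controls 1 to 6 had 7.83, 0.509, 6.24, 8.87, 8.68 and 0.349 CPM of Rps15a-ps6, and WT controls 1 to 7 had 0.272, 0.466, 0.736, 0.718, 0.535, 0.121 and 0.468 CPM. The KO controls thus fall into 4 libraries at 6.24 CPM or more and 2 within the WT range, and the log2 fold change was 3.45 ± 0.75. In the stressed libraries the high level occurred in both genotypes, where KO stress 1 had 6.68 CPM and WT stress 1 and 2 had 10.4 and 7.37 CPM, while the other 8 had 0.268 to 0.772 CPM. The parent gene Rps15a had 139 to 171 CPM in KO controls and 156 to 181 CPM in WT controls (log2 fold change −0.11 ± 0.05), with no such steps. How the authors' counting shared reads between the copies is not given, so both counts are uncertain.

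Among the other genes with the smallest p, those of known function in signalling had fitted folds of less than 2 in either direction. Fkbp5, which encodes a co-chaperone of the glucocorticoid receptor and is itself induced by glucocorticoids, had 55.0 to 89.7 CPM in KO controls (median 74.4) and 57.6 to 134 CPM in WT controls (median 71.4). WT controls 1 to 3, at 134, 123 and 106 CPM, lay above every KO control, and WT controls 4 to 7 lay among them. Its log2 fold change was −0.39 ± 0.09 over both classes, −0.16 in class 2 and −0.56 in class 1, and the edgeR p of that difference, 0.0318, did not pass after adjustment over all genes. In stressed libraries it was 0.04 ± 0.17. Grm4, a presynaptic metabotropic glutamate receptor gene, had 32.1 to 66.3 CPM in KO controls (median 54.0) and 19.8 to 46.0 CPM in WT controls (median 30.3), with overlapping ranges and a log2 fold change of 0.41 ± 0.10. Dgkg, a diacylglycerol kinase gene, had 66.2 to 163 CPM in KO controls (median 83.2) and 110 to 187 CPM in WT controls (median 141), and its log2 fold change was −0.43 ± 0.12, with −0.09 in class 2 and −0.70 in class 1. Ngfr, the p75 neurotrophin receptor gene, had 2.58 to 7.40 CPM in KO controls (median 3.27) and 1.81 to 2.59 CPM in WT controls (median 2.14), with the highest values, 7.13 and 7.40 CPM, in KO controls 2 and 3 (log2 fold change 0.94 ± 0.25).

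Transcription factor and guidance genes in this set had log2 fold changes of varied size. Vax1, a homeobox gene of the ventral forebrain, had 0.702 to 2.00 CPM in KO controls (median 1.18) and 0.136 to 0.760 CPM in WT controls (median 0.515). Only KO control 1 lay within the WT range, and the log2 fold change was 1.48 ± 0.36. Rorb, an orphan nuclear receptor gene of cortical layer neurons and thalamus, had 27.6 to 49.9 CPM in KO controls and 18.4 to 30.0 CPM in WT controls (log2 fold change 0.43 ± 0.12). Ntn1, the axon guidance gene netrin 1, had a log2 fold change of −0.29 ± 0.07, with 9.64 to 17.96 CPM in KO controls and 11.4 to 22.7 CPM in WT controls. Ipw, an imprinted non-coding RNA gene of the Prader-Willi region, had 0.858, 2.07, 0.788, 1.31, 3.42 and 3.63 CPM in KO controls 1 to 6, against 3.38 to 6.26 CPM in WT controls. KO controls 5 and 6 lay within that range, and the log2 fold change was −2.01 in class 1 and −0.17 in class 2. Of the others, Rab37 (a small GTPase gene, 0.77 ± 0.19), Gpr153 (an orphan receptor gene, 0.54 ± 0.14), Ccdc136 (0.29 ± 0.07), Ier3 (an early response gene, 0.41 ± 0.11) and Gm12429 (0.68 ± 0.18) had log2 fold changes above 0, and Gm3264 (−0.96 ± 0.23) had one below 0.

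For 8 genes all KO controls lay on 1 side of all WT controls. Abi3bp, an extracellular matrix gene, had 1.40 to 2.48 CPM in KO controls and 0.790 to 1.34 CPM in WT controls (log2 fold change 0.84 ± 0.22). Prr22 had 1.99 to 2.69 CPM in KO controls and 1.43 to 1.83 CPM in WT controls (0.61 ± 0.16). Both belong to the 20 genes of smallest p, while the other 6 do not. March11, a ubiquitin ligase gene, had 5.59 to 8.36 CPM in KO controls and 4.07 to 5.28 CPM in WT controls, and Gm1976 had 19.8 to 21.8 CPM in KO controls and 15.8 to 19.6 CPM in WT controls. On the other side, Trmt5, a tRNA methyltransferase gene, had 6.00 to 7.56 CPM in KO controls and 7.75 to 9.11 CPM in WT controls. The gap of Abt1 was narrower, at 17.2 to 20.1 CPM in KO controls and 20.3 to 22.3 CPM in WT controls. Oxt, also of this set, is described with the hypothalamic transcripts. In the stressed libraries the log2 fold changes of Abi3bp, Prr22, March11, Trmt5, Abt1 and Gm1976 were 0.16, 0.17, 0.11, −0.08, −0.02 and −0.19.

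**Figure D3:**
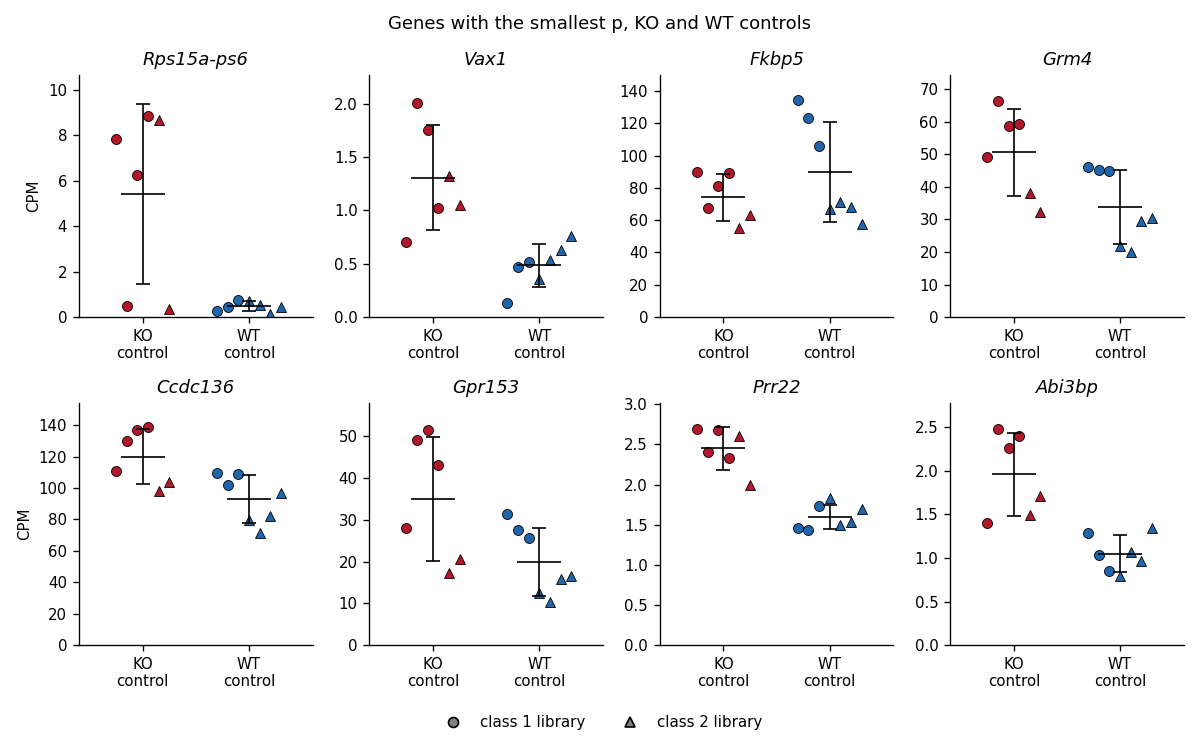
Levels in CPM (vertical axes, from 0) of 8 genes among the 20 of smallest p, in the 6 KO control and 7 WT control libraries. Circles are class 1 and triangles class 2 libraries, with the mean and SD as bars. Rps15a-ps6 is at 6.24 to 8.87 CPM in 4 KO controls and under 1 CPM elsewhere, and Fkbp5 is at 106 to 134 CPM in the class 1 WT controls only.

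Genes downstream of the receptor were looked at as groups. Of 27 tested genes of interleukin-1 receptor and NF-kB signal transduction 0 passed. Their median log2 fold change was −0.01, with a range of −0.20 to 0.22, beside a median of 0.0017 over all 15655 genes. Only 1 of the 27 had an unadjusted p under 0.05, near the share of 3.98% among all genes. It was Irak2, a receptor-associated kinase gene, with 17.5 to 22.8 CPM in KO controls and 17.2 to 27.8 CPM in WT controls (log2 fold change −0.18 ± 0.08). Of 25 genes that interleukin-1 and other cytokines induce, 12 were expressed highly enough to be tested and 0 passed, with 5 above and 7 below 0 (median −0.07). The sign of this median turned with the setting, at 0.011 in class 1, −0.0025 in class 2, 0.10 with all 24 libraries and class, 0.03 with quality weights, 0.0030 without KO control 6 and 0.04 without WT control 6. Ptgs2, the inducible cyclooxygenase gene, had 5.12 to 11.4 CPM in KO controls and 7.42 to 15.7 CPM in WT controls, with a log2 fold change of −0.27 ± 0.12. Of 26 interferon-stimulated genes 0 passed and 18 lay above 0 (median 0.15). This median was 0.23 in class 1 and 0.03 in class 2, and 0.04 without KO control 1, whose summed level of these genes was 235 CPM beside 186 to 209 CPM in the other KO controls and 189 to 219.8 CPM in WT controls. It was 0.06 with quality weights and 0.08 without WT control 1. The leading ones were Rsad2, which encodes the antiviral protein viperin, at 0.813 to 1.51 CPM in KO controls and 0.272 to 1.08 CPM in WT controls (log2 fold change 0.80 ± 0.31), and Irf9, a transcription factor gene of interferon signalling (0.28 ± 0.13). Of 16 complement genes 0 passed (median −0.11), with Cfb, complement factor B, at 4.34 to 5.10 CPM in KO controls and 4.35 to 6.77 CPM in WT controls (−0.31 ± 0.12).

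Astrocyte, microglia and endothelial markers had medians close to 0, and that of myelin markers was higher. The 20 astrocyte markers had a median log2 fold change of −0.02 and a range of −0.17 to 0.13, the narrowest of the cell type lists with at least 20 tested genes. The 23 microglia markers had a median of 0.02, with 0.08 in class 1 and −0.08 in class 2 and 16 of them above 0, and P2ry13, a purinergic receptor gene of microglia, had 7.13 to 13.3 CPM in KO controls and 6.12 to 11.9 CPM in WT controls (0.19 ± 0.10). Of 23 endothelial markers, the cell type in which the receptor is abundant, 0 passed. The median was 0.04, with 18 above and 5 below 0. Mfsd2a, a lipid transporter gene of the blood-brain barrier, had 17.8 to 44.1 CPM in KO controls (median 32.1) and 19.0 to 51.8 CPM in WT controls (median 22.5), with a log2 fold change of −0.29 ± 0.09. Within class 1 its KO controls had 31.1 to 44.1 CPM and its WT controls 48.7 to 51.8 CPM, so that these did not overlap, and its level in class 1 was above that in class 2 throughout. Eng, the endothelial receptor gene endoglin, had a log2 fold change of 0.21 ± 0.08. Of 20 oligodendrocyte and myelin markers 18 lay above 0 (median 0.13), with a median of 0.31 in class 1 and −0.08 in class 2. Opalin, a myelin membrane protein gene, had 22.9 to 42.4 CPM in KO controls and 13.7 to 42.2 CPM in WT controls (0.35 ± 0.18), and Mog, another myelin gene, had log2 fold changes of 0.46 in class 1 and −0.09 in class 2.

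Markers of pyramidal and granule cells of the hippocampus mostly had log2 fold changes below 0, and 0 of them passed. Of 20 markers of CA1 and CA3 pyramidal cells 16 lay below 0 and 5 had an unadjusted p under 0.05, all below 0, where 1.99% of all genes had such a p and sign. Their median log2 fold change was −0.16, with −0.18 in class 1, −0.09 in class 2 and −0.08 in stressed libraries. Nptx1, a synaptic pentraxin gene, had 360 to 583 CPM in KO controls (median 372) and 358 to 640 CPM in WT controls (median 556), with a log2 fold change of −0.19 ± 0.07. These 2 CPM medians pool the classes in unlike shares, and the log2 fold change allows for class. Of 18 dentate granule cell markers 13 lay below 0 (median −0.15), and the leading one was Il16, with 9.20 to 29.6 CPM in KO controls and 13.03 to 40.2 CPM in WT controls (−0.37 ± 0.10). Pcp4, a calmodulin regulator gene of CA2 and thalamic neurons, had 283, 424, 454, 442, 159 and 191 CPM in KO controls 1 to 6 and 150 to 246 CPM in WT controls. KO controls 1 to 4 lay above all WT controls, and its log2 fold change was 0.81 in class 1 and 0.03 in class 2. The pyramidal, dentate and CA2 lists share their libraries with the thalamic and hypothalamic transcripts below, and the part of those transcripts in these medians was not tested. Without KO controls 2 to 4 the pyramidal and dentate medians were −0.10 and −0.05. Of 11 tested CA2 markers 7 lay above 0, with a median of 0.0064, which was −0.08 without these libraries.

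Receptor genes for transmitters had members on both sides of 0. Of 29 glutamate receptor genes 0 passed, with 16 above and 13 below 0. Gria1, an AMPA receptor subunit gene, had 372 to 799 CPM in KO controls (median 384) and 406 to 900 CPM in WT controls (median 678), and its log2 fold change was −0.22 ± 0.09. The medians here pool the classes, whose shares differ between the genotypes, while the log2 fold changes allow for class. Of 14 GABA-A receptor subunit genes 0 passed. Gabrd, the delta subunit of extrasynaptic receptors on granule and thalamic cells, had 51.4 to 91.7 CPM in KO controls (median 76.7) and 39.9 to 65.6 CPM in WT controls (median 53.1), with a log2 fold change of 0.45 ± 0.14. Gabra5, the hippocampal alpha-5 subunit gene, had one of −0.27 ± 0.11, with 45.6 to 146 CPM in KO controls and 61.5 to 184 CPM in WT controls. Of 12 serotonin receptor genes 0 passed, and Htr1a had 12.6 to 28.7 CPM in KO controls and 20.1 to 31.0 CPM in WT controls (−0.29 ± 0.13). Among 21 GABAergic interneuron markers Ndnf, of neurogliaform cells, had 3.42 to 6.17 CPM in KO controls and 3.92 to 9.78 CPM in WT controls (−0.49 ± 0.19).

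Activity and hormone response genes had medians on opposite sides of 0 in the classes, and 0 of them passed. The 30 immediate early genes had a median log2 fold change of 0.23, with 24 above and 6 below 0. The median was −0.05 in class 1, 0.55 in class 2 and −0.45 in stressed libraries. Fos, the best known of them, had 71.0 and 67.8 CPM in KO controls 5 and 6 and 6.54, 12.8, 39.2 and 82.1 CPM in WT controls 4 to 7. In class 1 it had 14.0 to 26.7 CPM in KO controls and 17.4 to 23.9 CPM in WT controls. Fos thus spread over more than 10-fold among the class 2 WT controls alone, and its log2 fold change was 0.43 ± 0.50. Nptx2, an early-response pentraxin gene, had 56.4 to 112 CPM in KO controls and 37.0 to 98.8 CPM in WT controls (0.28 ± 0.13), and Sik1, a salt-inducible kinase gene, had log2 fold changes of −0.03 in class 1 and 0.99 in class 2. Of 24 glucocorticoid-responsive genes 19 lay below 0 (median −0.08), with a median of −0.22 in class 1, 0.12 in class 2 and 0.05 without KO controls 2 to 4. Plin4, a lipid droplet gene induced by glucocorticoids, had 2.34 and 4.30 CPM in KO controls 5 and 6 and 2.54 to 4.31 CPM in WT controls 4 to 7, but 29.9 to 37.9 CPM in KO controls 1 to 4 and 52.7 to 82.4 CPM in WT controls 1 to 3. The class 2 minus class 1 log2 fold change of Plin4 was −4.04 (adjusted p = 2.17e-07 in edgeR), and the KO minus WT one −0.66 ± 0.21. Dbp, a clock output transcription factor gene, had 71.6 to 109 CPM in KO controls and 63.5 to 107 CPM in WT controls (0.24 ± 0.10), among 19 clock genes. Of these 15 lay above 0 (median 0.06), 4 had an unadjusted p under 0.05, all above 0 and beside 1.99% of all genes, and the median was −0.04 in class 1 and 0.17 in class 2. Rorb, given above as a gene of cortical layer neurons and thalamus, is on this clock list and among the 4. Of 26 heat shock and chaperone genes 22 lay below 0 (median −0.06). The median was 0.0040 without the class term and 0.02 without KO controls 2 to 4, so its sign turned. The list was led by Hspa1b at 18.5 to 30.0 CPM in KO controls and 26.3 to 39.2 CPM in WT controls (−0.38 ± 0.12). Hspa1b has a near-identical copy, Hspa1a, and its counts are uncertain to that extent.

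**Figure D4:**
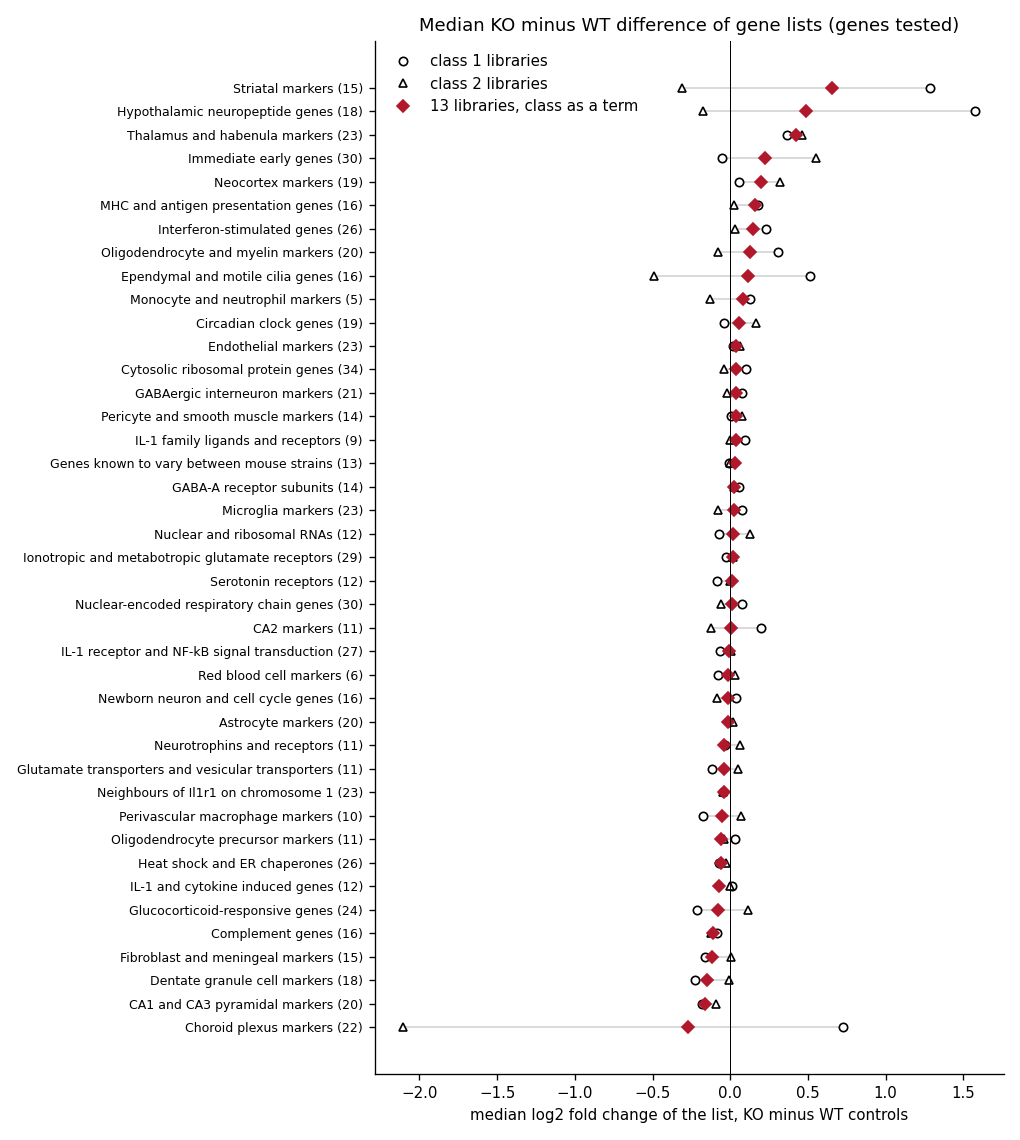
Median KO minus WT log2 fold change (horizontal axis) of gene lists, with the number of genes tested in brackets. Diamonds are the fit of 13 libraries with class as a term, circles class 1 and triangles class 2 libraries alone. The choroid plexus, striatal, hypothalamic and immediate early lists have their class 1 and class 2 medians on opposite sides of 0.

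The 3 genes with a fitted log2 fold change above 4, Oxt, Avp and Pmch, encode neuropeptides of the hypothalamus, and their difference rested on 3 libraries. Of 18 tested hypothalamic neuropeptide genes 0 passed. An unadjusted p under 0.05 was found for 6 with higher and 1 with lower values in KO controls, beside 1.99% of all genes in each direction. Oxt, the oxytocin gene, had 0.507, 53.4, 56.3, 10.4, 0.474 and 0.419 CPM in KO controls 1 to 6 and at most 0.351 CPM in WT controls, with a log2 fold change of 6.09 ± 1.61. Avp, the vasopressin gene, had 89.5, 91.7 and 34.4 CPM in KO controls 2, 3 and 4, at most 0.624 CPM in KO controls 1, 5 and 6 and at most 1.21 CPM in WT controls. Pmch, which encodes melanin-concentrating hormone, had 48.1, 58.7 and 46.1 CPM in KO controls 2 to 4, at most 0.273 CPM in KO controls 1, 5 and 6 and at most 2.35 CPM in WT controls. The orexin gene Hcrt had 30.9, 42.1 and 34.7 CPM in KO controls 2 to 4, at most 0.339 CPM in KO controls 1, 5 and 6 and at most 0.357 CPM in WT controls. In all 4 genes KO controls 2, 3 and 4 stand apart and KO controls 1, 5 and 6 lie near the WT controls. Without these 3 libraries the log2 fold change of Pmch was −0.46, the median of the list was −0.06 against 0.49 with them, and 0 of 15989 genes passed (200 higher and 223 lower at an unadjusted edgeR p under 0.05). The 3 libraries were picked by these same transcripts after the values were seen, so the fall of the values follows from the choice and is no test.

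Striatal and thalamic markers were high in the same 3 libraries. The summed level of the striatal markers was 1072 to 2145 CPM in KO controls 2 to 4, 446 to 654 CPM in KO controls 1, 5 and 6 and 407 to 719 CPM in WT controls. Rgs9, a regulator of dopamine receptor signalling in the striatum, had 103, 55.3 and 41.1 CPM in KO controls 2 to 4, 19.1 to 25.4 CPM in the other KO controls and 16.8 to 30.2 CPM in WT controls. All 15 tested striatal markers lay above 0 (median 0.66), and without KO controls 2 to 4 their median was −0.17. Leaving out these libraries was decided after the values were seen, so the medians without them are descriptions only. The 23 thalamus and habenula markers had a median of 0.43, with 20 above 0, and 0.09 without these libraries. The median was 0.36 in class 1 and 0.46 in class 2, to which KO controls 2 to 4 do not belong. The summed level of the thalamic markers was 725 to 900 CPM in KO controls 2 to 4 and 224 to 405 CPM in the other KO controls. It was 501 to 727 CPM in WT controls 1 to 3 and 212 to 262 CPM in WT controls 4 to 7. In class 2, KO control 5 had 224 CPM and KO control 6 had 369 CPM. Prkcd, a protein kinase C gene of thalamic neurons, had 150, 183 and 154 CPM in KO controls 2 to 4 and 103 CPM in WT control 1, against 21.4 to 57.1 CPM in all others. Among the thalamic list, Lef1, a Wnt pathway transcription factor gene, had 7.29 to 17.0 CPM in KO controls and 6.47 to 12.1 CPM in WT controls (0.33 ± 0.12), and Lhx9, a LIM homeobox gene, had 4.68 to 7.13 CPM in KO controls and 6.11 to 9.38 CPM in WT controls (−0.43 ± 0.14). Foxp2, a transcription factor gene of deep cortical layers, striatum and thalamus, had 4.81 to 21.7 CPM in KO controls and 1.44 to 13.3 CPM in WT controls (0.66 ± 0.27).

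Choroid plexus, brainstem and other transcripts varied by library in both genotypes. Ttr, the transthyretin gene of the choroid plexus, had 176, 1733, 1432, 1074, 16.3 and 18.3 CPM in KO controls 1 to 6 and 1132, 147, 333, 47.6, 1430.4, 2439 and 155 CPM in WT controls 1 to 7. The values spread over more than 10-fold in both genotypes, and in class 2 both KO controls lay below all WT controls. All 22 tested choroid plexus markers lay below 0 and 0 passed. Their median was −0.27, with 0.73 in class 1, −2.10 in class 2 and −1.68 without KO controls 2 to 4, and it ran from −0.71 without WT control 2 to 0.10 without KO control 5. Th, the gene of the dopamine-synthesizing enzyme tyrosine hydroxylase, had 5.12 to 13.01 CPM in KO controls 1 to 4, 23.7 to 45.3 CPM in WT controls 1 to 3 and at most 1.17 CPM in class 2 libraries. Tph2, the serotonin-synthesizing enzyme gene of raphe neurons, stood at 38.2 CPM in KO control 1 and 12.6 CPM in WT control 2, against 0.680 to 2.71 CPM in the others. Chat, the acetylcholine-synthesizing enzyme gene, had 1.20 to 3.43 CPM in KO controls 1 to 4 and at most 0.799 CPM in any other library (log2 fold change 1.77 ± 0.58). Gnat1, the transducin gene of retinal rod cells, had 9.76 CPM in KO control 5, at most 2.44 CPM in the other KO controls and at most 1.10 CPM in WT controls. The dopamine, serotonin, cholinergic, rod and liver lists were drawn up after these values were seen. Spink8, a pyramidal cell gene of the hippocampus, was instead high in class 2, at 21.1 and 20.05 CPM in KO controls 5 and 6 and 16.8 to 29.3 CPM in WT controls 4 to 7, against 4.11 to 7.72 CPM in KO controls 1 to 4 and 7.17 to 7.43 CPM in WT controls 1 to 3. The part of these transcripts in the differences of other genes was not tested. A fit with the mean of the hypothalamic markers as a further covariate called 0 genes. The main fit had also called 0, so this count cannot show that part.

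**Figure D5:**
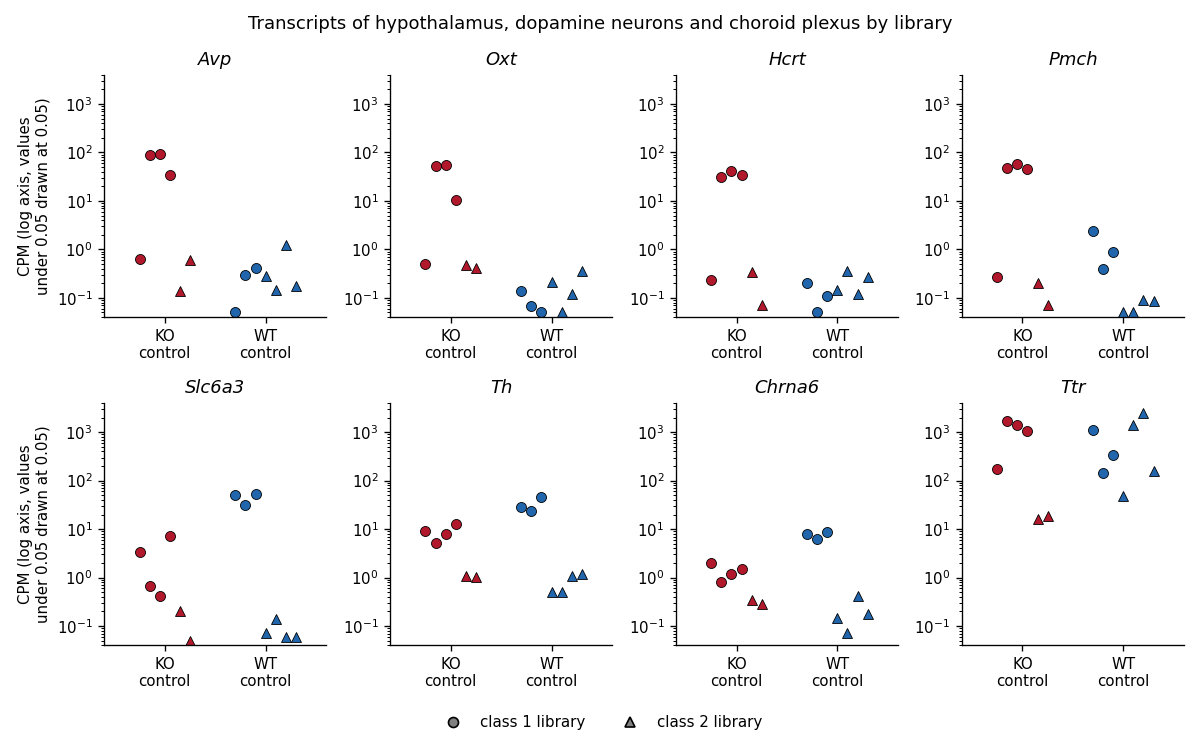
Levels in CPM (vertical log axes, values under 0.05 drawn at 0.05) of hypothalamic (Avp, Oxt, Hcrt, Pmch), dopamine neuron (Slc6a3, Th, Chrna6) and choroid plexus (Ttr) genes in the 6 KO control and 7 WT control libraries. Circles are class 1 and triangles class 2 libraries. The hypothalamic genes are at 10.4 to 91.7 CPM in KO controls 2 to 4 and under 3 CPM elsewhere, and Slc6a3 is at 31.3 to 53.4 CPM in WT controls 1 to 3.

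The genotype difference was also fitted within each class and in the stressed libraries. Within class 1, 4 KO against 3 WT controls, edgeR called 0 of 15896 genes (939 at an unadjusted p under 0.05), and within class 2, 2 KO against 4 WT controls, 0 of 15871 (601 at an unadjusted p under 0.05). A test of the difference between the classes called 0 genes in edgeR (559 genes with a higher and 421 with a lower KO minus WT difference in class 2 at an unadjusted p under 0.05) and 12 in DESeq2. Across 14212 genes the log2 fold changes of the classes had a Pearson correlation of −0.15 and a Spearman correlation of −0.19, and 41.8% had the same sign. In the stressed libraries, 5 KO stress against 6 WT stress with class as a term, edgeR called 0 of 15794 genes, with 931 (5.89%) at an unadjusted p under 0.05. Leaving out 1 stressed library at a time gave 0 genes in 10 of 11 fits and 22 genes, 17 higher and 5 lower in KO, without WT stress 5. Across 14231 genes the log2 fold changes in stressed and control libraries had a Pearson correlation of 0.07 and a Spearman correlation of −0.09, and 44.7% had the same sign. Genes are not independent replicates, and these correlations describe the libraries only. A test of whether the genotype difference changed with stress called 0 of 16313 genes in edgeR (274 higher and 264 lower at an unadjusted p under 0.05).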

How the data were processed

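RNA of mouse hippocampus was sequenced, and the files deposited by the authors hold unnormalized whole-number counts by gene symbol. The submitters' processing notes name STAR, DESeq2 and mm10 without versions. What counted the reads, against which annotation and with what strand setting, is not given in the sources used here. Even numbers made up 70.9% to 75.8% of counts of 10 or fewer, so both mates of a pair may have been counted. The authors' normalized counts and their table of 1 comparison were not used. Groups and replicate numbers came from the titles, and all 13 libraries differed beyond sampling noise (smallest mean chi-square per gene 5.75).

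Of 24062 genes in the table, 3690 had no count in the control libraries and 15655 passed the edgeR filter (minimum count 10). They were tested in R 4.3.3 with edgeR 4.0.16 (quasi-likelihood F test, robust, TMM factors), with genotype and number class as terms, 10 residual degrees of freedom and Benjamini-Hochberg adjustment over all genes at 0.05. The biological coefficient of variation was 0.152. Standard errors are approximate and were taken as the log2 fold change over the root of F. CPM values use TMM-scaled library sizes, except Rn45s and the 3-read floor, which are over all reads. The floor speaks of counting error alone. Intervals of 95% came from limma voom 3.58.1, and DESeq2 1.42.0 was an alternative. The code was tested on simulated data.

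Gene positions are from GENCODE annotation of mm10, matched by symbol for 22708 of 24062 genes. Named genes are 6 genes of the interleukin-1 system, the 20 of smallest p (group mean 1 CPM or more), since fewer than 10 passed, and up to 2 members of smallest p for each of 42 lists. Genes whose ranges do not overlap (1 of them is not reported here), Avp, Hcrt, Th, Gnat1, Alb, Ttr, Fos, Entpd4, Rps15a, Tph2, Spink8 and Prkcd, and 5 further lists were chosen after their values were seen. The comparison, its members and all lists were chosen with earlier results of these data known, and the classes were first noticed in the counts. Other settings were other normalizations, filters, class terms and tests, all 24 libraries, and leaving out each library.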

Additional observations from a re-analysis of the deposited data

Results flagged for a closer look

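In 11 of the 150 groups of values examined for named genes, 1 library stood apart from the rest of its group by a gap test at the 95% level. Its nominal rate by chance alone is about 1 in 20 groups. That rate need not hold for untransformed CPM with values of 0, so the number of groups marked is not read against it. Each value below is in CPM. Tph2, of serotonin neurons, had 38.24 CPM in KO control 1 against 0.838 to 1.29 CPM in the other KO controls, and 12.62 CPM in WT control 2 against 0.680 to 2.71 CPM in the other WT controls. Gnat1, the transducin gene of rods, had 9.761 CPM in KO control 5 against at most 2.44 CPM in the other KO controls. Alb, the serum albumin gene of liver, had 0.07796 CPM in KO control 1, which is 2 reads and under the floor of 3 reads, against 0 in the other KO controls, and 24.43 CPM in WT control 3 against at most 8.12 CPM in the other WT controls.

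Prkcd, of thalamic neurons, had 103.5 CPM in WT control 1 against 21.4 to 41.6 CPM in the other WT controls. The hypothalamic genes Pmch and Avp had 2.346 CPM in WT control 1 and 1.206 CPM in WT control 6, against at most 0.883 and 0.405 CPM in the other WT controls. Il1rn had 0.06786 CPM in KO control 2, also 2 reads, where the other KO controls had 0. Any single library with a read would stand apart in these 2 cases, so neither is a difference beyond counting error. Il1r2 had 0.617 CPM in KO control 3 against at most 0.271 CPM. Entpd4, a nucleotidase gene, had 424.9 CPM in WT control 6 against 312 to 349 CPM in the other WT controls.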

How the results depend on the processing

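The count of genes between KO and WT controls was 0 in 11 of 12 planned settings: without the class term, with Rn45s in its place, in either class alone, with all 24 libraries, with other factors, filters or quality weights, and with the replicate block. It was 2 with DESeq2, and 0 to 1 over the libraries left out in turn. The stressed count was 0 to 22 over its libraries left out, and the interaction with class was 12 with DESeq2. The cause of these changes was not tested. Intervals within a 25% rise or the matching fall held 55.3% and within 2-fold 91.5% of genes. The replicate block gave 0 genes in controls and 0 in stressed libraries. No pairing by shared numbers was seen: the deviations of same-numbered libraries from their genotype means correlated at −0.18 to 0.36 in controls, and 0 of 6 pairs matched best. These deviations still hold the class difference, so they cannot exclude a pairing by number. Of 1872 values recomputed for 70 named genes, 34 changed sign, and 57 genes had no change. Il1r1 by the exact permutation test had −0.073 within classes and −0.081 to 0.17 with a library left out. In edgeR it had 0.045 without class, 0.019 in class 1, 0.044 and 0.041 with 24 libraries with and without class, 0.0061 without KO controls 2 to 4, and −0.23 to 0.036 with a library left out. Il1a had −0.045 without class, −0.31 in class 2, −0.048 with 24 libraries without class, and −0.19 to 0.31 with a library left out. In class 2 alone Plin4 had 0.11, Mog −0.087, Rgs9 −0.048, Avp −0.33, Th 0.35, Entpd4 0.0052 and Tph2 −0.48, and in class 1 alone Sik1 had −0.033, Fos −0.046 and Ttr 1.05. Without KO controls 2 to 4, and with the hypothalamic mean as covariate (both chosen after seeing the data), Pmch had −0.46 and −0.57 and Rgs9 −0.0067 and −0.0023. Ttr had 0.15 with 24 libraries and class, and −2.55 to 0.16 with a library left out. Tph2 had −0.43 with the replicate block, −0.58 with quality weights and −1.49 to 1.18 with a library left out. Depth limits transcripts under 1 CPM, such as Il1a and Il1b.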

Other observations

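Entpd4, on chromosome 14 and known to vary between mouse strains, had 219 and 222 CPM in KO controls 1 and 4, against 333 to 366 CPM in KO controls 2, 3, 5 and 6 and 312 to 425 CPM in WT controls. The other 12 tested genes of the strain list had 1 unadjusted p under 0.05, that of Wdfy1, beside 3.98% of all genes. The 10 liver genes had a summed level of at most 0.312 CPM in KO controls, against 64.7 and 18.6 CPM in WT controls 3 and 4 and at most 0.292 CPM in the other WT controls.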
